A study of Morchella sextelata with 15 samples.

Results

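Pendimethalin and trifluralin, a pair of dinitroaniline herbicides, were compared in mycelium of the black morel Morchella sextelata, an ascomycete fungus grown for food. The comparison rests on 6 of the 15 RNA-seq libraries of the study, the 3 labelled pendimethalin and the 3 labelled trifluralin, with the 3 herbicide-free libraries as the reference level. Per the labels all libraries came from wild-type mycelium. Cultures were kept for 5 days at 20 °C on potato dextrose agar, and the herbicide in the medium was at 10 times the usual application rate of each product, per the series description. The doses of the 2 herbicides are therefore matched as multiples of each product's own rate, and the sources used here do not give the concentrations themselves. The remaining 6 libraries came from mycelium on S-metolachlor and acetochlor. The labels do not say whether the libraries of a group came from separate cultures, so p-values measure the spread between these libraries, which may be technical.

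Dinitroanilines are pre-emergence herbicides. In plants and in some protozoa they bind the tubulin dimer and keep it from being added to growing microtubules, so that spindles and cortical microtubules are lost. Both compounds carry nitro groups on either side of an aniline nitrogen. Trifluralin has a trifluoromethyl group on the ring and a tertiary amine with propyl chains, whereas pendimethalin has methyl groups on the ring and a secondary amine with a branched alkyl chain.

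The files give transcripts by assembly identifiers only. None of the 20602 row names matched any of the 13182 genes in the RefSeq gene table of the species, so no gene function can be attached to any transcript below, tubulins included, and no sequence accompanies the identifiers. For the same reason the mycelium could not be checked against marker genes. Levels are given as CPM, the estimated fragments of a transcript scaled to a common library total, with TMM normalization factors. They are not divided by transcript length, so they compare libraries for 1 transcript and not transcripts with each other. In RNA from whole mycelium, a lower level through fewer cells that express a transcript and one through less RNA per cell cannot be told apart.

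The 6 dinitroaniline libraries held between 24071293 and 24766457 expected counts and the controls between 23921235 and 24309184. Pendimethalin replicate 3 stood apart from the other 5 dinitroaniline libraries. It lay at least 2-fold above or below all 5 of them, on log2(CPM + 0.5), in 682 of 17555 tested transcripts, against 340 for pendimethalin replicate 2, 110 for pendimethalin replicate 1, and 178, 60 and 90 for trifluralin replicates 1, 2 and 3. Across transcripts its Spearman correlation with its own group was 0.924 and 0.927, while trifluralin libraries correlated with each other at 0.955 to 0.962. Pendimethalin replicates 1 and 2 correlated with each other at 0.954, which lay within their range of 0.933 to 0.968 with trifluralin. Replicate 3 itself correlated with trifluralin at 0.916 to 0.948, with control at 0.936 to 0.942 and with acetochlor at a median of 0.947. Pendimethalin replicates 1 and 2 lay lower, at 0.871 to 0.935 with control and 0.917 to 0.928 with acetochlor. Trifluralin libraries correlated with control at 0.864 to 0.945 and with acetochlor at 0.921 to 0.954, ranges that include the values of replicate 3. Transcripts are not independent replicates, so these coefficients only describe the libraries. The results below are given with and without this library.

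To ask how far the 2 responses agree, the mean response to both dinitroanilines was set against control, and the difference between them was then read in the transcripts that responded. That difference is formed without the control means, although the control libraries entered the shared estimate of spread. The dinitroanilines together changed 3657 of the 17555 transcripts tested (20.8%; edgeR quasi-likelihood test, adjusted p under 0.05), of which 1838 were higher (10.5%) and 1819 lower (10.4%) than control. In these 3657 transcripts the median absolute log2 response was 1.40, and the median absolute log2 difference between pendimethalin and trifluralin was 0.27, against 0.29 over all transcripts tested. The difference was smaller than the mean response in 3544 of the 3657 responding transcripts and in 66.9% of all tested, a description that partly follows from choosing transcripts with a response. Between the herbicides, 51 of the 3657 were called different (1.39%), against 72 of all 17555 tested (0.410%) and 21 of the 13898 not called against control (0.151%). The mean response contains the level of each herbicide, so a transcript moved by 1 herbicide alone can enter both calls. These shares are a description. The responding count itself was 1746 without control replicate 1 and 1450 without control replicate 3. By limma, on log2(FPKM + 0.1) values, 2977 transcripts were higher and 1380 lower, with a median log2 response over all transcripts of 0.18 against 0.00 in edgeR.

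A missed threshold does not show that 2 compounds act alike, so the 95% interval of each difference was examined as well. It lay within 2-fold in both directions for 1636 of the 3648 responding transcripts for which an interval could be computed (44.8%), and for 38.4% of all tested. The share was 52.3% among responding transcripts higher than control and 37.3% among those lower than control. Where the mean response was at least 4-fold, the interval lay within 2-fold for 51 of 1084 transcripts (4.7%). There the median interval reached 1.57 log2 units to either side, so that for most of the strongest responders the interval took in a difference of 2-fold or more. Without pendimethalin replicate 3 the interval lay within 2-fold for 34.1% of all tested and 39.6% of responding transcripts, 49.1% of those higher and 31.0% of those lower than control, and for 39 of 1490 transcripts with a response of at least 4-fold (2.62%).

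Leaving out pendimethalin replicate 3 raised the number of responding transcripts. The dinitroanilines then changed 4610 of 18432 transcripts (25.0%), 2180 higher (11.8%) and 2430 lower (13.2%), and 3483 of the 3657 were among them. Removing a control as well gave 2820 without replicate 1 and 2373 without replicate 3. The filter on low counts keeps more transcripts when a group has 2 libraries. On the transcripts tested with all libraries, a setting added after the data were seen, the count was 4696. The median absolute log2 difference between the herbicides in the 4610 responding transcripts was 0.31, their median absolute log2 response was 1.44, and 55 of them were called between the herbicides (1.19%), against 80 of all 18432 tested (0.434%).

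**Figure D1:**
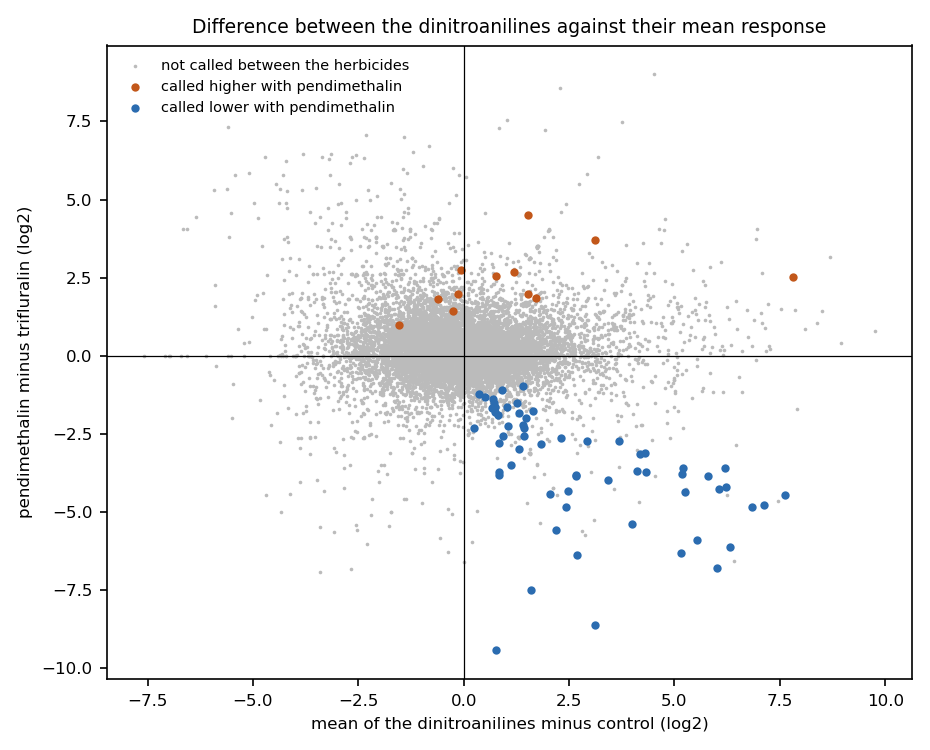
Each point is 1 transcript, with the mean log2 response of the dinitroanilines relative to control on the horizontal axis and the log2 difference pendimethalin minus trifluralin on the vertical axis, both fitted with all libraries. Coloured points are the 72 transcripts called between the herbicides; the 60 called lower with pendimethalin lie to the right of 0, at a mean response above control, and the 12 called higher lie on both sides.

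Between pendimethalin and trifluralin, 72 of 17555 transcripts were called (0.410%; edgeR adjusted p under 0.05). Pendimethalin was lower than trifluralin in 60 of them (0.342% of those tested) and higher in 12 (0.0684%). In all 72 the libraries of the 2 groups did not overlap, as in 10.0% of all transcripts tested. Their number changed with the groups that shared the estimate of spread. A fit of edgeR to the pendimethalin and trifluralin libraries alone called 0. In it 705 of 14644 had an unadjusted p under 0.05, no larger a share than this threshold passes where no transcript differs. A fit that also held control called 13. DESeq2 with all groups called 218, 83 higher and 135 lower, among them all 72. Leaving out 1 library gave 37 calls without pendimethalin replicate 1, 29 without pendimethalin replicate 2, 45 without trifluralin replicate 1 and 34 without trifluralin replicate 3. The 37 were 14 higher and 23 lower with pendimethalin. Across these fits, 22 of the 72, 3 higher and 19 lower, were called in each of the 6 fits that left out a library.

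The 60 transcripts lower with pendimethalin were ones that stood above control with trifluralin. Their log2 fold changes ran from -9.43 to -0.96 with a median of -3.55, and 46 of them differed at least 4-fold. On log2(CPM + 0.5), the median transcript of the 60 lay 0.25 above control with pendimethalin and 2.74 above control with trifluralin. All 3 trifluralin libraries lay above all 3 controls in 60 of the 60, against 17.9% of all tested. All 3 pendimethalin libraries did so in 14 of the 60, against 13.7% of all tested, and in 42 the pendimethalin and control libraries overlapped. The control mean was nearer to pendimethalin than to trifluralin in 60 of the 60, against 53.7% of all tested, and in 59 without control replicate 1. The call itself compared no control mean. Of the 60, 46 were also called in the mean response, each higher than control, against 10.5% called higher among all tested. The mean response contains the trifluralin level by which these transcripts differed, so this count is a description.

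The 12 transcripts higher with pendimethalin lay in several positions relative to control. Their log2 fold changes ran from 0.97 to 4.49 with a median of 2.26. The median transcript lay 2.06 above control with pendimethalin and -0.44 relative to control with trifluralin on log2(CPM + 0.5). Pendimethalin libraries lay entirely above the controls in 9 of the 12 and trifluralin libraries in 3. The control mean was nearer to trifluralin in 8 and nearer to pendimethalin in 4. Of the 12, 5 were called in the mean response, 4 higher and 1 lower than control, against 20.8% called in either direction among all tested.

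By the direction of the mean response, 50 of the 1838 transcripts higher than control were called between the herbicides (2.72%), and 1 of the 1819 lower than control was (0.055%), against 0.410% of all tested. With pendimethalin reduced to replicates 1 and 2, the counts were 52 of 2180 (2.39%) and 3 of 2430 (0.123%), against 0.434% of all tested. The difference between these shares was not tested. They too may hold transcripts moved by 1 herbicide alone. With all libraries the median interval reached 0.67 log2 units to either side in the transcripts higher than control and 0.89 in those lower.

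The libraries of the chloroacetanilides, which entered neither contrast, were read in the same transcripts. They did enter the filter and the shared estimate of spread, on which the number of calls depended. In the 60 transcripts lower with pendimethalin, acetochlor lay nearer to trifluralin in 52 and nearer to pendimethalin in 8, whereas over all tested transcripts it lay nearer to trifluralin in 46.6%. S-metolachlor lay nearer to trifluralin in 5 and nearer to pendimethalin in 55 of the 60, with 47.4% nearer to trifluralin over all tested. The median level relative to control was 2.59 with acetochlor and 0.01 with S-metolachlor on log2(CPM + 0.5). In the 12 transcripts higher with pendimethalin, acetochlor was nearer to trifluralin in 9 and S-metolachlor in 6.

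**Figure D2:**
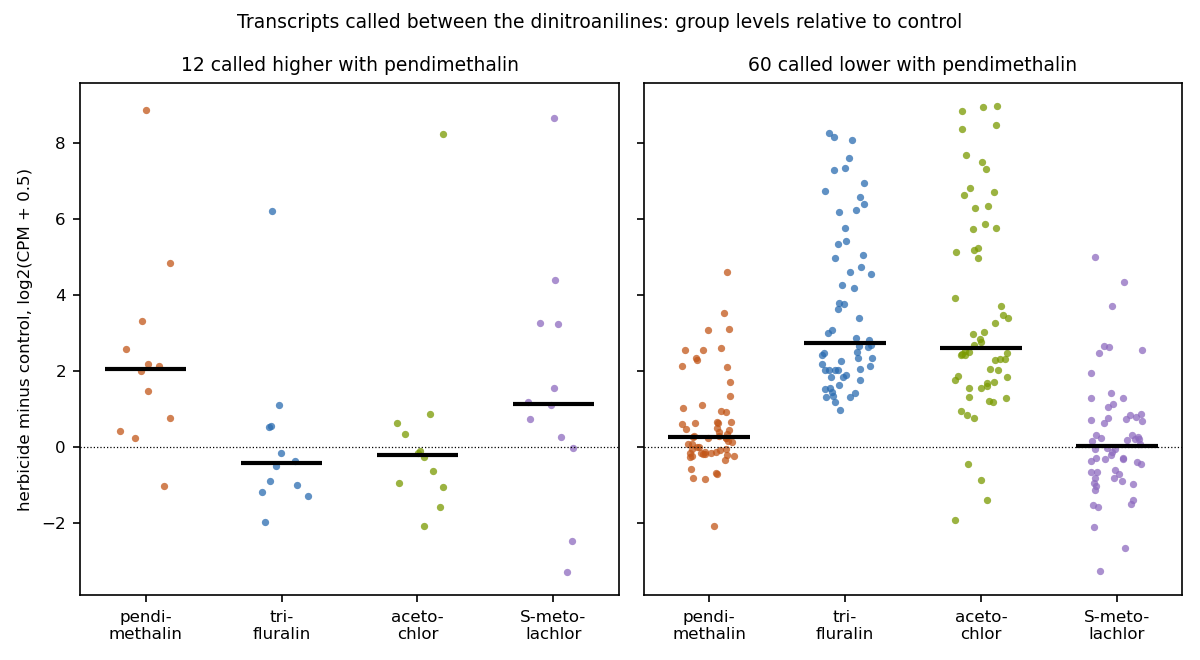
Points are the transcripts called between pendimethalin and trifluralin, 12 higher with pendimethalin on the left and 60 lower on the right; the vertical axis is the herbicide mean minus the control mean on log2(CPM + 0.5), and black bars are medians. In the right panel pendimethalin and S-metolachlor have medians of 0.25 and 0.01, and trifluralin and acetochlor medians of 2.74 and 2.59.

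By the rule for naming, which takes the largest changes with no overlap between the groups' libraries and at least 10 CPM in the higher group, 4 transcripts are given for this comparison. TRINITY_DN923_c0_g1_i1_3 had 0.489, 0.484 and 0.699 CPM with pendimethalin, against 527, 44.0 and 91.4 CPM with trifluralin and 0.882, 2.05 and 0.900 CPM in control. Pendimethalin libraries thus lay below every control and every trifluralin library, and trifluralin replicate 1 was the highest. By edgeR the adjusted p was 0.00188 at a log2 fold change of -8.62 (SE 0.96). The fold change was -6.92 when trifluralin replicate 1 was removed, and -8.83 (95% interval -11.44 to -6.21, edgeR adjusted p = 0.00457) when pendimethalin replicate 3 was. With limma's library weights the call was lost, and adjusted p ranged from 8.18e-27 to 0.249 over all alternatives.

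TRINITY_DN5239_c0_g1_i1_1 had 3.46, 1.41 and 6.16 CPM with pendimethalin, against 1547, 246 and 191 CPM with trifluralin and 18.5, 22.0 and 8.50 CPM in control. Again no pendimethalin library reached the lowest control, while the trifluralin libraries stood above all controls. Its log2 fold change was -7.49 (SE 0.97, edgeR adjusted p = 0.00363). It was -5.89 without trifluralin replicate 1 and -8.08 without pendimethalin replicate 3 (edgeR adjusted p = 0.00693), and the call ended when the edgeR fit held only pendimethalin, trifluralin and control (adjusted p = 0.0816; 3.47e-20 to 0.302 over all alternatives). Neither transcript was high with the other herbicides: acetochlor averaged 0.442 ± 0.189 and 3.98 ± 2.43 CPM and S-metolachlor 3.82 ± 1.31 and 4.88 ± 1.45 CPM (SD, n = 3 each) in TRINITY_DN923_c0_g1_i1_3 and TRINITY_DN5239_c0_g1_i1_1. Of the other herbicides' means in these 2 transcripts, one lay above the control mean, that of S-metolachlor in TRINITY_DN923_c0_g1_i1_3, where control averaged 1.28 CPM.

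Of the transcripts higher with pendimethalin, TRINITY_DN1863_c0_g1_i1_2 had 1009, 2856 and 2293 CPM with pendimethalin, against 134, 256 and 77.9 CPM with trifluralin and 62.1, 73.5 and 59.5 CPM in control. All trifluralin libraries also lay above all controls, by less. On the log2 scale the herbicides differed by 3.72 (SE 0.52, edgeR adjusted p = 0.00598), and by 3.59 without pendimethalin replicate 3 (SE 0.54, edgeR adjusted p = 0.00942). The edgeR fit of pendimethalin, trifluralin and control did not call it (adjusted p = 0.0701; 1.55e-11 to 0.302 over all alternatives). The mean response of the dinitroanilines was 3.12 (SE 0.48, edgeR adjusted p = 0.00121).

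TRINITY_DN6633_c0_g1_i4_4 had 10.5, 27.8 and 26.8 CPM with pendimethalin, against 1.31, 0.882 and 0.683 CPM with trifluralin and 1.16, 1.47 and 2.15 CPM in control. Trifluralin and control libraries overlapped, and pendimethalin lay above both. The log2 fold change was 4.49 (SE 0.85, edgeR adjusted p = 0.0403). This call did not survive the removal of any single library among the 6, the edgeR adjusted p being lowest, 0.0523, on removing pendimethalin replicate 1 and highest, 0.215, on removing trifluralin replicate 3. On removing pendimethalin replicate 3 the value was 4.27 (edgeR adjusted p = 0.0696; 6.84e-07 to 0.215 over all alternatives).

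Without pendimethalin replicate 3, 80 of 18432 transcripts were called between the herbicides (0.434%), 12 higher (0.0651%) and 68 lower (0.369%) with pendimethalin. In all 80 the libraries of the groups did not overlap, as in 20.7% of the transcripts tested. Of the 80, 55 were among the 72 called with all libraries, all in the same direction, 9 higher and 46 lower. They are 76.4% of the calls with all libraries and 68.8% of those without replicate 3. On the transcripts tested with all libraries the count was 82. Lower calls outnumbered higher ones with and without the library, less so in DESeq2, which without it called 101 higher and 184 lower. A fit of edgeR to the 2 groups alone called 4, and one that also held control called 29. Removing pendimethalin replicate 2 as well, which leaves 1 pendimethalin library assumed to vary like the other groups, gave 30. Limma on log2(FPKM + 1) called 55 higher and 96 lower. In the 68 lower transcripts the median level relative to control was -0.02 with replicates 1 and 2 of pendimethalin and 2.62 with trifluralin on log2(CPM + 0.5), and trifluralin libraries lay entirely above control in 66.

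After passing over those already given, the rule names 4 further transcripts here. TRINITY_DN8108_c0_g1_i7_1 had 0 and 0.0806 CPM with pendimethalin replicates 1 and 2, against 36.6, 24.4 and 71.1 CPM with trifluralin and 0.0928, 0.0419 and 0.04999 CPM in control. It was near the detection limit in those pendimethalin and control libraries, and replicate 3 of pendimethalin held 1.81 CPM. The 2 counts in pendimethalin replicates 1 and 2 gave a ratio of trifluralin over pendimethalin of 1146, with a 95% counting interval of 317 to 9466 that covers counting error only (edgeR adjusted p = 0.000461; 3.63e-16 to 0.105 over all alternatives). Both counts came from pendimethalin replicate 2. The fitted log2 value, which at such counts depends on the prior count and is no bound, was -9.99, and it was -9.03 without pendimethalin replicate 1 and -13.06 without pendimethalin replicate 2. With all libraries the log2 fold change was -6.14 (95% interval -8.30 to -3.98, edgeR adjusted p = 0.0156). Acetochlor held 187 ± 36.2 CPM (SD, n = 3).

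TRINITY_DN7458_c0_g1_i3_3 had 0.301 and 0.0806 CPM with pendimethalin replicates 1 and 2, against 56.5, 37.3 and 85.3 CPM with trifluralin and 0.232, 0.168 and 0.150 CPM in control. Pendimethalin replicate 3, at 1.89 CPM, stood above the controls and below each trifluralin library. The log2 fold change was -8.25 without replicate 3 (SE 0.61, edgeR adjusted p = 0.000180) and -6.30 with it (SE 0.76, edgeR adjusted p = 0.00251; 9.69e-36 to 0.0891 over the alternatives without replicate 3). Without replicate 3, also leaving out pendimethalin replicate 1 gave -9.47 and replicate 2 gave -7.60. This transcript too was high with acetochlor, at 246 ± 67.4 CPM (SD, n = 3).

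TRINITY_DN1147_c0_g1_i1_4 had 2186, 1789 and 1085 CPM with pendimethalin, against 422, 326 and 124 CPM with trifluralin and 4.55, 2.01 and 2.85 CPM in control. Both herbicides stood far above control, with pendimethalin the higher. Acetochlor was also far above control, at 1133 ± 571 CPM, and S-metolachlor was at 7.56 ± 1.99 CPM (SD, n = 3 each). Leaving out pendimethalin replicate 3, the log2 difference between pendimethalin and trifluralin was 2.76 (SE 0.51, edgeR adjusted p = 0.0370). With that library it was 2.54 (SE 0.49, edgeR adjusted p = 0.0451). Removing any of the other 5 libraries as well put the edgeR adjusted p between 0.0556 without trifluralin replicate 1 and 0.126 without pendimethalin replicate 1 (3.34e-05 to 0.366 over all alternatives). TRINITY_DN9164_c0_g1_i1_4 had 5.11 and 19.8 CPM with pendimethalin replicates 1 and 2 and 1.15 CPM in replicate 3, against 0.983, 1.64 and 2.05 CPM with trifluralin and 0.557, 1.55 and 0.900 CPM in control. Replicate 3 thus lay among the trifluralin and control values. Its log2 fold change was 2.94 without replicate 3 (SE 0.55, edgeR adjusted p = 0.0409) and 2.47 with it (SE 0.75, edgeR adjusted p = 0.368). With replicate 3 left out, the call also ended without pendimethalin replicate 2 (1.71, edgeR adjusted p = 0.654) and without trifluralin replicate 1, 2 or 3 (edgeR adjusted p = 0.179, 0.113 and 0.0971; 0.00013 to 0.654 over all alternatives), and the value was 3.63 without pendimethalin replicate 1.

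**Figure D3:**
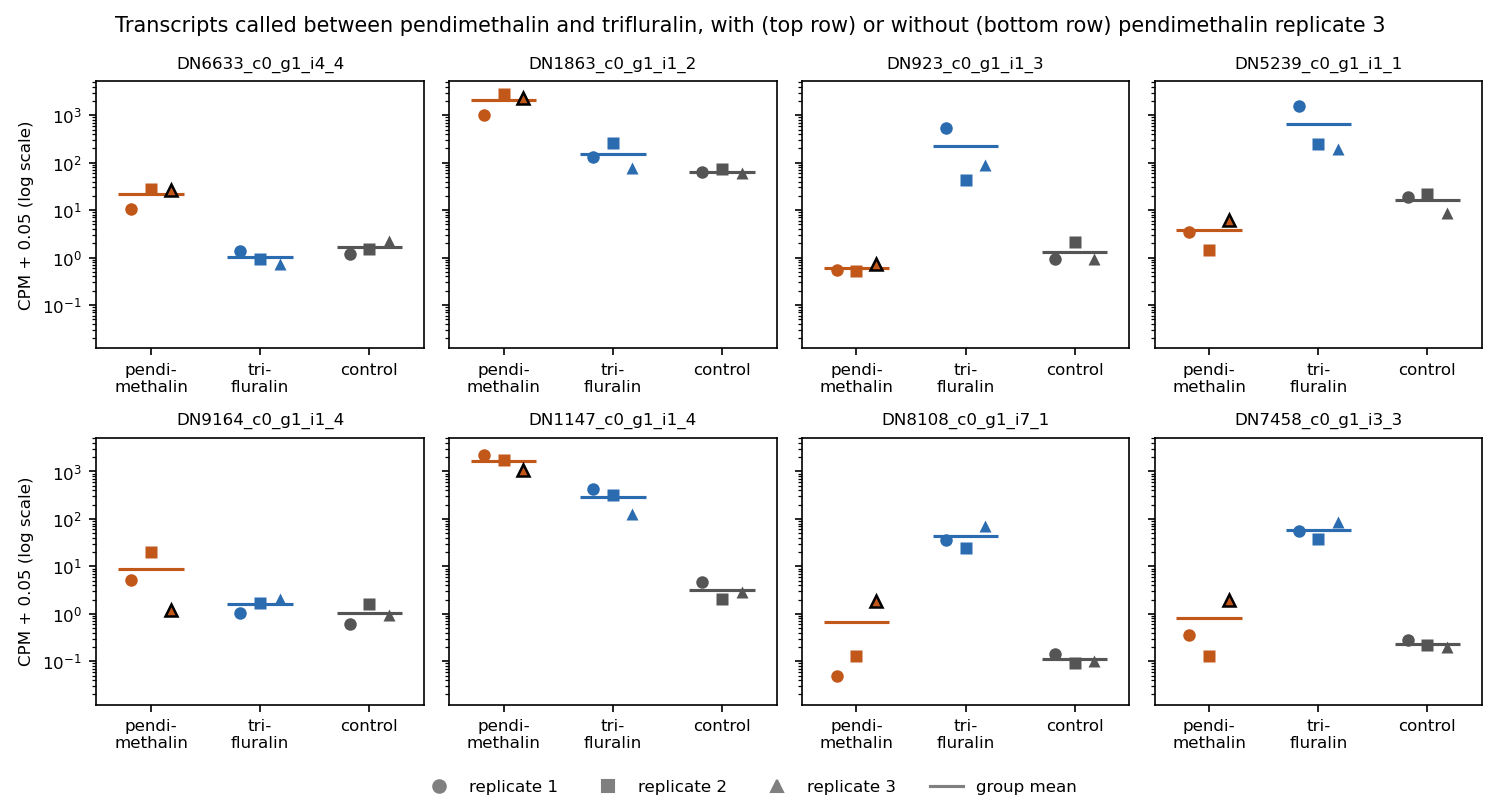
CPM plus 0.05 on a log axis in each library of pendimethalin, trifluralin and control for the 4 transcripts named with all libraries (top row) and the 4 named without pendimethalin replicate 3 (bottom row); symbols mark replicates, pendimethalin replicate 3 is outlined in black, and bars are means of 3 libraries. In the top row replicate 3 lies on the side of its group, as the rule of no overlap between the groups' libraries required. In TRINITY_DN9164_c0_g1_i1_4, named without it, it sits at 1.15 CPM among the trifluralin libraries.

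Because the 80 calls made without pendimethalin replicate 3 did not use it, its position in them is a separate measurement. The library was left out because it was already known to stand apart, so its rank below is no independent evidence of that. It lay nearer to the other pendimethalin libraries than to trifluralin in 56 of the 80 (70.0%), 10 of the 12 higher and 46 of the 68 lower ones. On a scale where 0 is the mean of the other pendimethalin libraries and 1 the mean of trifluralin, its median position was 0.35, and it was at or beyond the trifluralin mean in 4. The same was done for each other library in the transcripts called without it. Pendimethalin replicate 1 was nearer to its own group in 28 of 37 (median position 0.04) and replicate 2 in 28 of 29 (median -0.19). Trifluralin replicates 1, 2 and 3 were nearer to their own group in 40 of 45, 49 of 61 and 32 of 34, with medians of -0.02, 0.26 and -0.07. Pendimethalin replicate 3 thus had the lowest share and the highest median of the 6, and trifluralin replicate 2 the next highest median. For pendimethalin replicates 1 and 2 the own-group mean includes replicate 3, so the 6 positions do not share 1 scale. The fits share most of their libraries, so these counts are not independent of each other. Each set of calls was chosen for a gap between the libraries left in, which may by itself place the left-out one nearer the other herbicide.

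**Figure D4:**
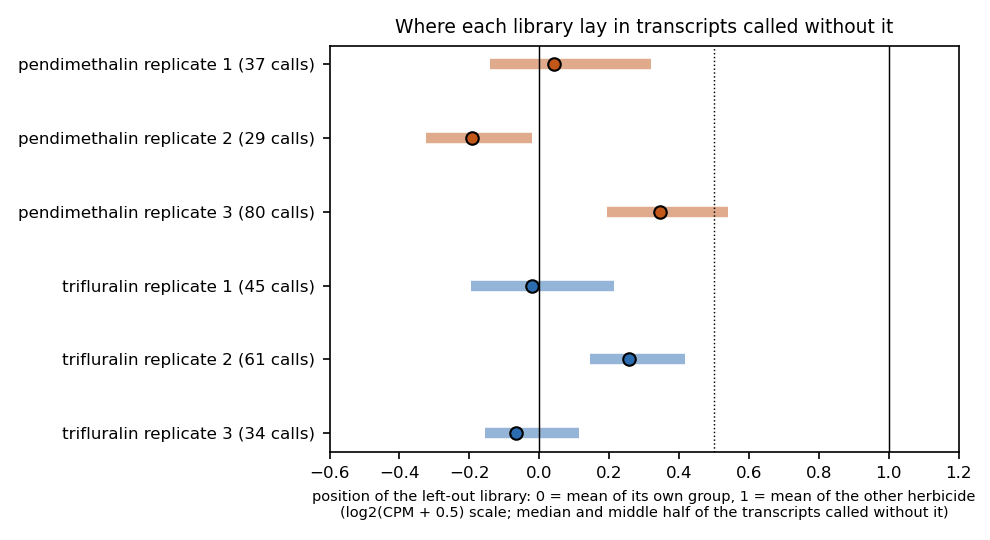
For each of the 6 dinitroaniline libraries, the horizontal axis gives its position in the transcripts called between the herbicides without it, from 0 at the mean of the rest of its own group to 1 at the mean of the other herbicide, on log2(CPM + 0.5); dots are medians and bars run from the lower to the upper quartile of the transcripts. Pendimethalin replicate 3 has its median at 0.35 and the other 5 libraries lie between -0.19 and 0.26.

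Transcripts changed by the dinitroanilines together were named from the mean response, among those whose interval between the herbicides lay within 2-fold. TRINITY_DN1460_c0_g1_i2_3 had 13.9, 18.7 and 11.3 CPM with pendimethalin and 6.76, 20.5 and 17.8 CPM with trifluralin, against 0.603, 1.47 and 0.400 CPM in control. All 6 herbicide libraries lay above the controls and the 2 herbicides overlapped. Its log2 mean response was 4.15 (SE 0.47, edgeR adjusted p = 0.000217), or 4.87 with control replicate 2 removed, and the difference between the herbicides was -0.04 with a 95% interval of -0.94 to 0.87. Without pendimethalin replicate 3 that interval was -0.93 to 1.09, which reaches past 2-fold. Acetochlor averaged 5.55 ± 0.446 CPM and S-metolachlor 11.0 ± 1.15 CPM, both above the 0.823 ± 0.566 CPM of control (SD, n = 3 each).

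TRINITY_DN15381_c0_g1_i1_1 had 326, 602 and 381 CPM with pendimethalin and 339, 454 and 473 CPM with trifluralin, against 65.3, 53.7 and 23.0 CPM in control. The lowest herbicide library was at 326 CPM and the highest control at 65.3 CPM. The mean response was 3.18 (SE 0.34, edgeR adjusted p = 0.000168), and the difference between the herbicides was 0.05 (95% interval -0.67 to 0.76; -0.72 to 0.92 without pendimethalin replicate 3). Acetochlor, at 46.3 ± 10.5 CPM, was close to the control mean of 47.3 ± 21.8 CPM, and S-metolachlor was at 157 ± 6.25 CPM (SD, n = 3 each).

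Among transcripts lower than control, TRINITY_DN902_c0_g1_i1_1 had 3.01, 3.23 and 4.68 CPM with pendimethalin and 5.65, 1.89 and 3.42 CPM with trifluralin, against 35.6, 37.2 and 79.5 CPM in control. The highest herbicide library was at 5.65 CPM and the lowest control at 35.6 CPM. The mean response was -3.80 (SE 0.34, edgeR adjusted p = 7.9e-05), and the difference between the herbicides was -0.0049 (95% interval -0.88 to 0.87). That interval was -1.22 to 0.72 without pendimethalin replicate 3, past 2-fold. TRINITY_DN4827_c0_g1_i1_4 had 65.5, 37.0 and 90.6 CPM with pendimethalin and 70.2, 39.0 and 48.7 CPM with trifluralin, against 781, 582 and 918 CPM in control. Its mean response was -3.71 (SE 0.27, edgeR adjusted p = 3.8e-05), and the difference was 0.29 (95% interval -0.40 to 0.98; -0.77 to 0.66 without pendimethalin replicate 3). Both transcripts were also low with acetochlor, at 6.96 ± 2.05 and 97.5 ± 19.9 CPM, and with S-metolachlor, at 3.98 ± 0.298 and 51.7 ± 11.5 CPM (SD, n = 3 each). These 4 transcripts were called in the mean response under each of the 18 alternatives run for it.

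The transcripts in which pendimethalin replicate 3 stood farthest from the other 5 dinitroaniline libraries were also ones in which the controls spread widely. They were chosen by that distance, so their values are a description with no test. TRINITY_DN1350_c0_g1_i2_4 had 574 CPM in replicate 3, 0.113 and 0.323 CPM in pendimethalin replicates 1 and 2, and 8.03, 0.0802 and 0.494 CPM with trifluralin, against 6.50, 40.2 and 90.2 CPM in control. TRINITY_DN9032_c0_g1_i1_4 had 47.9 CPM in replicate 3, 0 and 0.443 CPM in the other pendimethalin libraries and 0.328, 0.0401 and 0 CPM with trifluralin, against 0.418, 1.13 and 9.80 CPM in control. In both the controls themselves spanned more than a 10-fold range, and replicate 3 was above the highest of them. The mean response of the dinitroanilines was -0.96 and -1.41 on the log2 scale in TRINITY_DN1350_c0_g1_i2_4 and TRINITY_DN9032_c0_g1_i1_4, and -5.87 and -4.53 without replicate 3.

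On the low side, TRINITY_DN1474_c0_g1_i1_2 had 11.2 CPM in replicate 3, 7185 and 4411 CPM in pendimethalin replicates 1 and 2, and 585, 5312 and 5775 CPM with trifluralin, against 40.1, 2543 and 6.90 CPM in control. TRINITY_DN3708_c0_g1_i1_4 had 2.22 CPM in replicate 3, 1281 and 1459 CPM in the other pendimethalin libraries and 71.9, 648 and 919 CPM with trifluralin, against 48.8, 1861 and 7.75 CPM in control. Replicate 3 lay within the range of the controls in the first and below all of them in the second. Trifluralin replicate 1 was the lowest of its group in both, and control replicate 2 was far above the other controls in both.

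**Figure D5:**
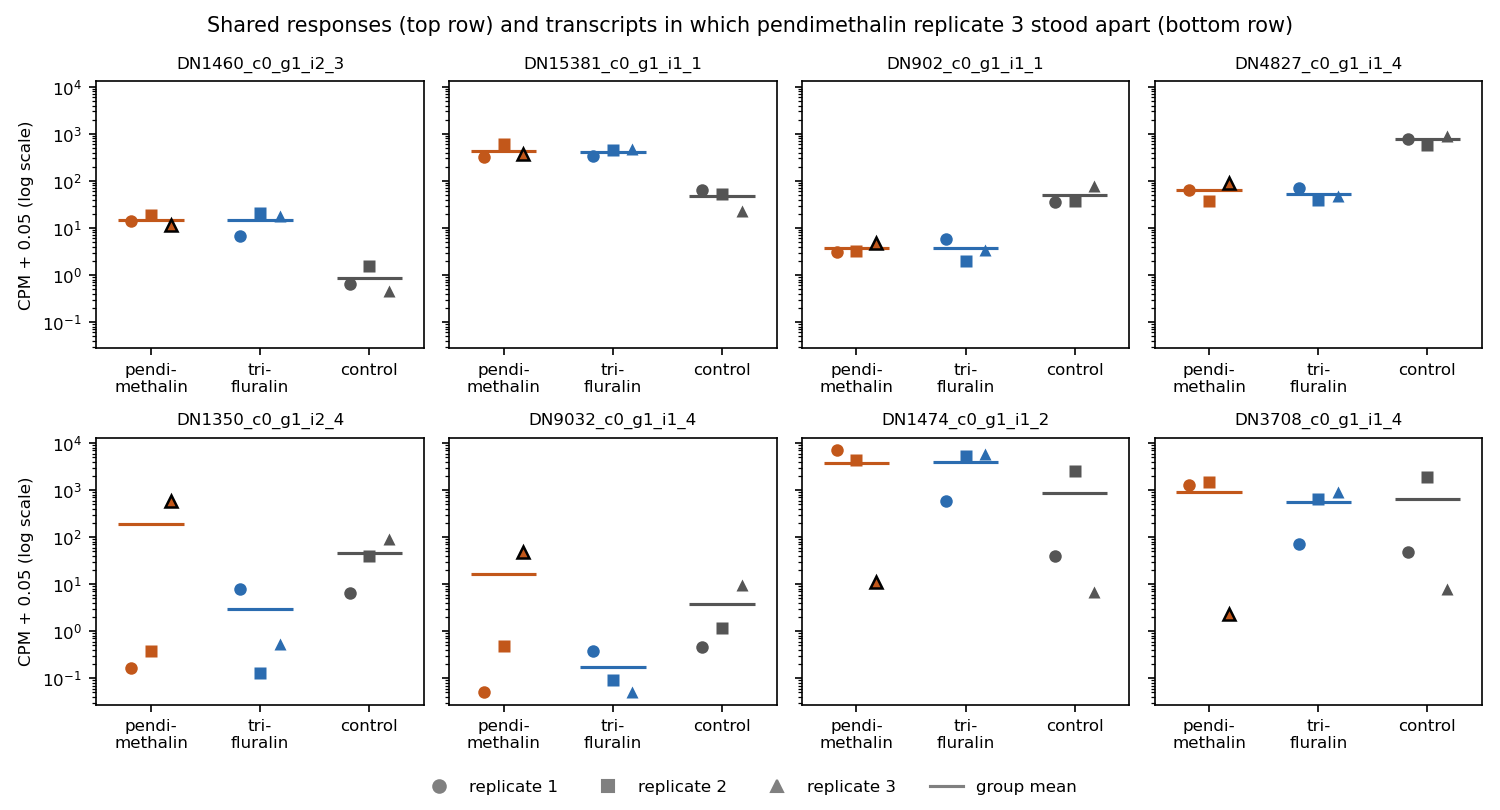
CPM plus 0.05 on a log axis in each library of pendimethalin, trifluralin and control; the top row shows the 4 transcripts named from the mean response of both herbicides and the bottom row the 4 in which pendimethalin replicate 3, outlined in black, stood farthest from the other 5 dinitroaniline libraries. Bars are means of 3 libraries, and in the bottom row the controls spread over more than a 10-fold range as well.

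Every row name ends in a digit from 1 to 5 whose meaning the sources used here leave unexplained, and each combination of assembly gene and digit occurs once. Of the 12 transcripts higher with pendimethalin 6 ended in 4, as did 4 of the 60 lower ones and 3330 of the 17555 tested. Those ending in 2 were 2 of the 12 higher, 16 of the 60 lower and 2355 of the 17555 tested. The part of the digit in these counts was not tested.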

How the data were processed

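RNA from Morchella sextelata mycelium was sequenced in 15 libraries, 3 per group. The authors deposited expected counts, of which 11.8% are whole numbers, and FPKM, scaled per transcript length and library total, for the same 20602 rows. The tools listed are Trimmomatic, Bowtie2 and DESeq, per the submitters' processing notes, which also list mm10, a build of the mouse genome; the rows here are named like Trinity transcripts instead. Which program did the counting is not stated there. Reads shared between near-identical transcripts may have been divided among rows.

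Expected counts were rounded, filtered in edgeR 4.0.16 by filterByExpr (17555 rows kept, 18432 without pendimethalin replicate 3; the minimum count was 10 and the minimum total 15) and scaled by TMM. All groups entered 1 quasi-likelihood fit with 1 mean each. P-values were adjusted by Benjamini-Hochberg over all rows and called under 0.05. The standard error is the log2 fold change over the square root of F. DESeq2 1.42.0 and limma 3.58.1 gave alternatives. Members and lists were chosen with earlier results of these data known. The text names, per comparison, at most 2 transcripts up and 2 down by largest change, at 10 CPM or more in the higher group with no overlap between the groups' libraries (and, for shared responses, an interval between the herbicides within 2-fold), and the 2 up and 2 down farthest in pendimethalin replicate 3. No 2 libraries held identical counts.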

Additional observations from a re-analysis of the deposited data

Results flagged for a closer look

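The response to pendimethalin differed from that to trifluralin, by the test of the difference itself, in 72 transcripts with all libraries and in 80 without pendimethalin replicate 3. Among the transcripts named with all libraries, the log2 difference pendimethalin minus trifluralin was 4.49 in TRINITY_DN6633_c0_g1_i4_4, 3.72 in TRINITY_DN1863_c0_g1_i1_2, -8.62 in TRINITY_DN923_c0_g1_i1_3 and -7.49 in TRINITY_DN5239_c0_g1_i1_1. Among those named without pendimethalin replicate 3 it was 2.94 in TRINITY_DN9164_c0_g1_i1_4, 2.76 in TRINITY_DN1147_c0_g1_i1_4 and -8.25 in TRINITY_DN7458_c0_g1_i3_3, and in TRINITY_DN8108_c0_g1_i7_1 the ratio of trifluralin over pendimethalin replicates 1 and 2 was 1146. Dixon's test for a single outlying sample was not applied, since each group has 3 libraries.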

How the results depend on the processing

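The count of transcripts called between pendimethalin and trifluralin, 72 with all libraries, was 0 with only the compared groups in the fit, 13 with control added, 44 without the S-metolachlor group in the fit and 218 with DESeq2, and 29 to 80 without 1 library. Without pendimethalin replicate 3 the 80 calls became 4, 29, 56 and 285 under the same settings, 151 in limma on log2(FPKM + 1) and 133 on log2(FPKM + 0.1) (35 higher and 98 lower), and 30 to 86 without 1 more library. The 3657 transcripts called in the mean response were 2227 with only the compared groups in the fit, 6012 with limma's library weights and 1450 to 4610 without 1 library; on log2(FPKM + 1) limma placed 2817 higher and 1502 lower. Without pendimethalin replicate 3 the 4610 became 2373 to 5215, with 2820 and 2373 without control replicates 1 and 3, and limma on log2(FPKM + 1) placed 3552 higher and 1912 lower. The causes of these moves were not tested. The number of transcripts with an interval within 2-fold, 6715, was 5661 to 6163 without 1 library. Summing rows per assembly gene and last digit changed nothing, since each combination is 1 row.

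Replicate numbers gave no pairing of the libraries that held across the groups. Deviations from the group means correlated at -0.26, 0.31 and -0.55 between pendimethalin and trifluralin libraries of numbers 1, 2 and 3. For libraries of different numbers in these 2 groups the values ran from -0.40 to 0.57. Between pendimethalin and control the values were 0.14, 0.18 and 0.50, against -0.54 to 0.44 for libraries of different numbers. Between trifluralin and control they were -0.03, -0.24 and -0.41. With the replicate block 54 transcripts were called between the herbicides and 56 without pendimethalin replicate 3, and 3067 and 3778 in the mean response; the interval count was 6475.

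The 8 transcripts named between the herbicides and the 4 named from the mean response kept the direction of that value under each alternative run for it, as did the distance of pendimethalin replicate 3 in the 4 named for it, under other scalings only. All were chosen for the largest changes without overlap, or for the largest distance, so a kept direction largely follows from the choice. The difference between the herbicides did not choose the 4 transcripts named for replicate 3. On removing that library it turned in sign in TRINITY_DN1350_c0_g1_i2_4 (6.06 with it, -3.72 without) and TRINITY_DN1474_c0_g1_i1_2 (-0.0080 and 0.55). The 4 named from the mean response were chosen partly by an interval of this difference within 2-fold. Among them it turned in TRINITY_DN4827_c0_g1_i1_4 (0.29 and -0.05) and TRINITY_DN1460_c0_g1_i2_3 (-0.04 and 0.08), where small values follow from that choice. DESeq2's size factors in edgeR and the removal of the filter left each count within 1.5 times its value. With 3 libraries a group, the median 95% interval of a difference between the herbicides reached 0.94 log2 units to either side.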
